A study of Mus musculus with 18 samples.

Results

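The genes described here are 39 members of the S phase and DNA replication machinery, chosen by symbol from the deposited FPKM table and followed through 12 mouse RNA-seq libraries, with H3K36me3 peaks and methylation differences over their bodies. They are 39 of 53946 genes in the table. All 39 passed the filter on low counts, as did 16233 genes in all.

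The study used C57BL/6 mice that carry the NUP98-HOXD13 transgene (NHD13), a model of myelodysplastic syndrome that can progress to acute myeloid leukemia, and deleted Setd2, the gene of the enzyme that trimethylates histone H3 at lysine 36, with Mx1-Cre, which is active in blood-forming cells and also in other tissues. RNA was sequenced in 4 groups of 3 libraries. The WT group held hematopoietic stem and progenitor cells (HSPCs) sorted from bone marrow of C57BL/6 mice without the transgene. The NHD13 group held marrow HSPCs of NHD13/Setd2 flox/flox mice, which carry the transgene and floxed alleles. The KO group held marrow HSPCs of NHD13/Setd2 KO mice, and the AML group held C-Kit+ cells sorted from the spleen of NHD13/Setd2 KO mice at the leukemia stage. By their labels, the AML and KO groups thus share transgene and deletion and differ in tissue, sort and disease stage. The labels give no age, and leave unsaid whether replicates were separate or pooled animals, so a p-value here measures the spread between libraries, which may be technical. The H3K36me3 libraries were 1 of C-Kit+ spleen cells labelled NHD13 - AML and 1 of such cells labelled NHD13/Setd2 KO - AML, and bisulfite sequencing covered 1 library for each of the 4 RNA groups.

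Before S phase, Cdc6 and Cdt1 load the MCM2-7 helicase ring onto origins, and Cdc45 and the GINS complex then turn it into the active replicative helicase. Primase and polymerase alpha start each strand, the RFC complex loads the PCNA clamp, polymerase epsilon extends the leading strand, and Fen1 and Lig1 finish the lagging strand. Many of these genes are transcribed at the G1 to S transition by E2F factors, which cyclin E and its kinase help release from the retinoblastoma protein, so in marrow their RNA is highest in dividing progenitors and falls as granulocytes and red cells mature.

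Setd2 did not check the label of the KO group, nor the deletion named in the AML label. Its levels, in CPM (counts relative to library size, scaled by TMM factors), were 45.2, 43.9 and 37.2 in WT, 34.4, 34.6 and 31.5 in NHD13, 33.1, 29.2 and 34.9 in the libraries labelled KO, and 183, 187 and 179 in AML. The NHD13 libraries and those labelled KO overlapped, and the AML libraries stood above all others. Gene-level counts cannot show the loss of single exons, so the group is called the libraries labelled KO, and each direction below rests on that label. Xist RNA, made from the inactive X of females, averaged 174 CPM in WT and 94.8 in NHD13, and was at most 0.105 CPM in KO and AML libraries. Eif2s3y, on the Y chromosome, averaged 59.9 CPM in KO and 68.4 in AML, and was at most 0.0494 CPM in WT and NHD13 libraries. Sex and the KO label therefore cannot be told apart when KO libraries are set against NHD13 or WT. Total counts ran from 18673704 to 28127686 per library. Replicate 1 of WT stood apart from the other WT libraries, the chi-square of its counts against theirs being 30.4 and 29.3 for each degree of freedom, and 4.01 between the other two. In NHD13 the same measure was 24.9 between replicates 2 and 3, 13.1 between 1 and 2 and 8.38 between 1 and 3, and at most 9.14 within KO and 2.63 within AML. The median log2 CPM over the members had an SD of 0.11 among the NHD13 libraries, against 0.032 in WT. That measure depends on which gene stands in the middle. With each member centred on its group mean, the median was 0.017, -0.0095 and 0.0037 in NHD13. In WT it was 0.042, -0.026 and -0.015, so the members as a set shifted less between the NHD13 libraries.

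RNA of cell type markers differed between groups, which in bulk libraries cannot tell cell proportions from levels per cell. The 10 neutrophil markers summed to between 26330 and 29942 CPM in WT, between 138628 and 160095 in NHD13, between 52298 and 55894 in KO and between 24185 and 24594 in AML. From KO to AML the sum and most of the list went opposite ways, since Elane, Mpo and Prtn3 were lower in AML and the other 7 markers higher, with a median log2 of 1.49 over the 10. The 10 stem and progenitor markers summed to 827 to 842 CPM in WT, 97.1 to 104 in NHD13, 372 to 388 in KO and 587 to 604 in AML. In NHD13 2 of those 10, Procr and Slamf1, averaged below 1 CPM. Of the 10, 2 were called higher and 7 lower in KO than in WT, and 4 higher and 4 lower in AML than in KO. The part of these markers in the results below was not tested. In bulk RNA, fewer cycling cells and less of a transcript per cell cannot be told apart.

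Levels between genes were compared per length, as FPKM in the deposited table. Pcna, the sliding clamp, was the highest member in all 4 groups, at 234 ± 16 FPKM (SD, n = 3) in WT and 174 ± 1.6 in AML. Mcm6, a helicase subunit, stood at 160 ± 13 FPKM in WT and 115 ± 0.64 in AML. Rrm2, the regulated subunit of ribonucleotide reductase, held the sixth place in WT, at 88.9 ± 4.2 FPKM, and the second in NHD13, at 192 ± 4.1. Fen1, the flap endonuclease, was the lowest member in WT at 0.708 FPKM, which rests on 32 to 44 reads per WT library, and its gene overlaps Tmem258 by 192 bases. No source used here says whether the authors' counting took strand into account, so values of members with an overlapping gene are uncertain. These include Ung (868 bases shared with Alkbh2), Ccne2 (with Ints8), Lig1 (1547 bases with Zswim9), Chaf1a (982 bases with Ubxn6), Tk1 (585 bases with Afmid) and Cdc45 (237 bases with Ufd1). Within groups the median coefficient of variation of the members was 5.95% in WT and 2.65% in AML. Cdt1 varied by 27.8% and Chaf1a by 26.0% among the WT libraries, both highest in replicate 1.

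Many promoters of the members held letter patterns of E2F factors. The choice of genes did not use these letters. Many of the genes are, as said above, transcribed by E2F factors, so the share is only a description. In the RefSeq promoters of GRCm38.p6, 250 bases before to 50 after the start, 32 of the 39 had an entry. Rfc2, Gins2, Pole, Mcm4, Gins1, Ccne2 and Prim2 had none. The 5 E2F letter patterns searched on both strands were TTTGGCGC, TTTCGCGC, TTCCCGCC, TTGGCGGG and TTCGCGGG, some of which overlap one another where they occur. At least 1 of them stood in 18 of the 32 promoters (56.2%), against 4.80% of 27025 genes with a promoter entry, 8.81% of the 10811 tested genes among them and 12 of 39 (30.8%) other replication genes. The CCAAT letters of NF-Y stood in 19 of 32 (59.4%), against 41.1% of all genes, and the TTTGAA letters found in promoters of late cell cycle genes in 3 (9.38%), against 20.2%. A match is a description of the letters and not a bound site. The stretches around the E2F letters of 7 members are printed because the results turn on these genes or, for Mcm5 and Mcm6, because 2 or more patterns stand together there, and that pair was added after the matches were seen. Capitals mark the E2F letters on either strand, each stretch reads 5′ to 3′ on the gene's strand, and positions count from the listed start as 0.
Rrm1, chr7:102441608-102441655, plus strand, -87 to -40: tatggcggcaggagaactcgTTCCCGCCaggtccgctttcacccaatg
Slbp, chr5:33652629-33652695, minus strand, -121 to -55: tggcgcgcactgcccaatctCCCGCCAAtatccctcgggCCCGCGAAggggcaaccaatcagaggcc
Chaf1a, chr17:56040349-56040398, plus strand, -67 to -18: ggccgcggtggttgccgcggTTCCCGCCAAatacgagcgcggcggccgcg
Clspn, chr4:126556838-126556885, plus strand, -142 to -95: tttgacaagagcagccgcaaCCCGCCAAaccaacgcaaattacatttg
Pola1, chrX:93632266-93632313, minus strand, -158 to -111: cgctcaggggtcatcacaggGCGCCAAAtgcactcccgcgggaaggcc
Mcm5, chr8:75109336-75109387, plus strand, -173 to -122: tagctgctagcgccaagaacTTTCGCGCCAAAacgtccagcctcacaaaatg
Mcm6, chr1:128359725-128359835, minus strand, -130 to -20: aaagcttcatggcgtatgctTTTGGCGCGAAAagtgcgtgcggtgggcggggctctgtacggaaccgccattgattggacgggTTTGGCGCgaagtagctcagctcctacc
Members with and without these letters are set side by side within the comparisons below.

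Against WT, the NHD13 libraries held more RNA of most replication genes: 27 of the 39 members rose and 3 fell (Ung, Rfc2 and Pola1) when libraries were scaled by TMM factors, but 9 rose and 16 fell when they were scaled by library totals. Of all 16233 genes tested with TMM factors, 25.3% rose and 28.7% fell. The median log2 fold change of the members was 0.28, against -0.04 for all genes. Library totals moved the median of all genes to -0.42 and that of the members to -0.10. Set against the median of all genes, the members' median stood higher by 0.27 to 0.33 on the log2 scale under TMM factors, library totals, upper quartiles, DESeq2 size factors and log2(FPKM + 0.1), and by 0.11 with log2(FPKM + 1). The 10 most counted genes took 14.1% to 15.8% of the reads of the NHD13 libraries and 6.90% to 7.16% of those of WT. The 9 members that rose under both TMM factors and library totals were Cdc6, Mcm10, Cdc45, Rrm1, Rrm2, Tk1, Slbp, Ccne1 and Ccne2.

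**Figure D1:**
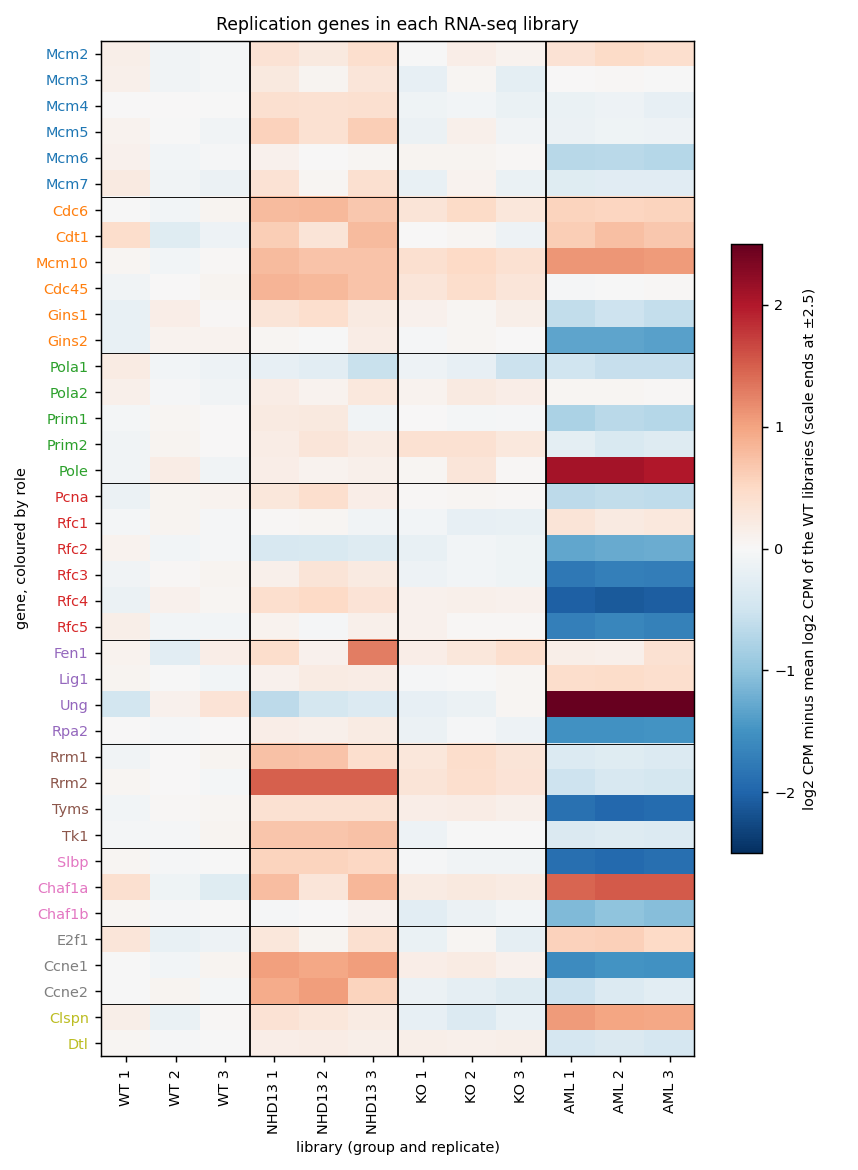
Each row is a member, coloured by role, and each column an RNA-seq library, with colour giving the log2 CPM (TMM scaling) minus the mean log2 CPM of the WT libraries. Of the 4 groups, Rrm2, Ccne1 and Ccne2 each had their highest mean in NHD13, and Tyms, Slbp and Rfc2 to Rfc5 each their lowest in AML. Under library totals 12 members that rose in NHD13 change sign.

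Nucleotide supply rose as a whole, with all 4 members called. Rrm2 was at 238, 231 and 224 CPM in WT and at 652, 652 and 651 CPM in NHD13. The libraries did not overlap, and the rise of 2.82-fold (SE 0.05 on the log2 scale) was the largest among the members (edgeR adjusted p = 4.15e-14). Its partner subunit Rrm1 rose by 0.62 ± 0.07 (log2), and Tk1, which salvages thymidine, by 0.70 ± 0.06. Tyms, thymidylate synthase, rose by 0.38 ± 0.05, from 200 to 217 CPM in WT to 273 CPM in each NHD13 library. Under library totals its log2 fold change was -0.0071.

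The E-type cyclins, which drive entry into S phase, came next. Ccne1 was at 46.2, 44.5 and 48.9 CPM in WT and at 94.8, 90.9 and 95.5 in NHD13 (log2 1.01 ± 0.06, edgeR adjusted p = 1.499e-10). Ccne2 was at 27.3, 28.7 and 26.6 CPM in WT and at 52.0, 56.4 and 40.5 in NHD13 (log2 0.85 ± 0.10, adjusted p = 1.41e-06). Neither gene overlapped between the groups. E2f1, an activating E2F factor, did not pass, with 50.2 to 70.2 CPM in WT and 59.2 to 74.6 in NHD13.

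Origin licensing and helicase activation had 5 of 6 members called higher. Cdc45 was at 81.0, 86.3 and 89.7 CPM in WT and at 153, 150 and 140 in NHD13, without overlap (log2 0.79 ± 0.06, adjusted p = 3.72e-09). Cdc6 rose by 0.76 ± 0.07 (log2) and Mcm10, which links helicase activation to polymerase alpha, by 0.73 ± 0.07. Cdt1 rose by 0.56 ± 0.17, with 101 CPM in WT replicate 1 above 94.3 CPM in NHD13 replicate 2. Of the MCM2-7 ring, Mcm5 (log2 0.53 ± 0.07), Mcm4 (0.39 ± 0.05), Mcm2 (0.34 ± 0.07) and Mcm3 (0.20 ± 0.08) rose, and Mcm6 and Mcm7 did not pass. Mcm2 and Mcm3 change sign under library totals, at -0.05 and -0.18. Mcm6, the ring subunit with the highest FPKM, was at 668 to 751 CPM in WT and 700 to 750 in NHD13.

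Changes among the fork, maturation and histone supply genes went both ways. Rfc4 of the clamp loader rose by 0.41 ± 0.07 (log2), while Rfc2 of the same complex was at 459, 413 and 426 CPM in WT and at 330, 332 and 347 in NHD13, a fall by 0.36 on the log2 scale (SE 0.06, adjusted p = 2.31e-05) without overlap. Pola1, the catalytic subunit of polymerase alpha, was at 108, 89.6 and 85.7 CPM in WT and at 80.9, 78.0 and 63.5 in NHD13 (log2 -0.35 ± 0.11, adjusted p = 0.0183). Those libraries did not overlap either. Ung, which removes uracil from DNA, was at 5.49, 8.06 and 9.54 CPM in WT and at 4.75, 5.56 and 5.93 in NHD13 (log2 -0.50 ± 0.16, adjusted p = 0.0142), and the groups overlapped. Slbp, which binds histone mRNA and is needed for histone supply in S phase, rose by 0.54 ± 0.05. Chaf1a of the chromatin assembly factor CAF-1 rose by 0.62 ± 0.17, and its partner Chaf1b did not pass. Fen1 rose by 0.69 ± 0.27, on few reads. In all, 8 calls were lost without 1 library: Mcm3 and Pola2 (without NHD13 replicate 1 or 3 or WT replicate 2 or 3, adjusted p up to 0.136 and 0.137), Cdt1 (without NHD13 replicate 3 or WT replicate 2 or 3, up to 0.0722), Fen1 (without NHD13 replicate 3 or WT replicate 2, up to 0.364), Ung (without NHD13 replicate 1 or WT replicate 3, up to 0.107), Pola1 (without NHD13 replicate 3 or WT replicate 1, up to 0.110), Lig1 (without WT replicate 3, 0.0622) and Dtl (without WT replicate 2, 0.0501). Fen1 had 78 reads in NHD13 replicate 3 and 33 and 40 in the others.

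Among members with E2F letters in the promoter, 13 of 18 rose in NHD13 against WT and 1 fell, with a median log2 of 0.21. Among those with an entry but no such letters, 10 of 14 rose and 1 fell, with a median log2 of 0.53. Rrm2 and Ccne1, the 2 members that rose at least 2-fold, had none of these letters in their listed window. Of all genes tested, 7.15% rose at least 2-fold.

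**Figure D2:**
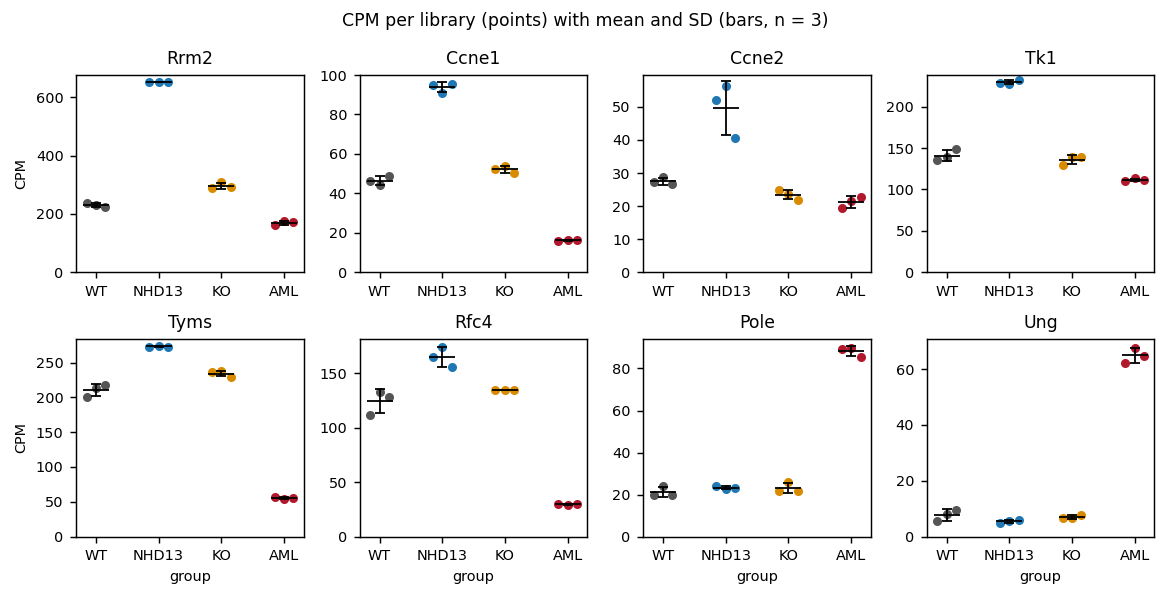
CPM (TMM scaling, vertical axes from 0) of 8 members in the 4 groups, with points for libraries and bars for mean and SD of 3. Rrm2, Ccne1, Ccne2 and Tk1 were highest in NHD13, Tyms and Rfc4 fell to 57.5 CPM or less in AML, and Pole and Ung were at 85.4 and 62.3 CPM or more in every AML library.

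Setting the KO group against NHD13 asks what Setd2 deletion adds to the transgene, and it shares the NHD13 libraries with the comparison above. Replication genes were lower in the libraries labelled KO: 25 of 39 members fell and 1 rose (Rfc2) with TMM factors, against 10 that fell and 5 that rose with library totals. Of all genes tested with TMM factors, 20.3% fell and 20.6% rose. The median log2 of the members was -0.28 and that of all genes 0.02. With library totals the medians were -0.09 and 0.21, and the members stood lower than all genes by between -0.26 and -0.30 under the first 5 scalings named above, and by -0.17 with log2(FPKM + 1). The 10 members that fell under both scalings were Mcm4, Mcm5, Cdc6, Cdc45, Rrm2, Tk1, Slbp, Ccne1, Ccne2 and Clspn.

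Rrm2 was at 290, 309 and 292 CPM in the libraries labelled KO, all below the 651 to 652 CPM of NHD13 (log2 -1.13 ± 0.05, edgeR adjusted p = 3.69e-12). Tk1 was at 130, 139 and 139 CPM in KO, against 228, 228 and 233 in NHD13 (log2 -0.75 ± 0.06, adjusted p = 2.03e-09). Rrm1 and Tyms fell by 0.28 and 0.22 on the log2 scale, so all 4 genes of nucleotide supply were called. Ccne1 was at 52.4, 53.7 and 50.4 CPM (log2 -0.85 ± 0.06, adjusted p = 3.13e-09). Ccne2 was at 24.8, 23.7 and 21.9 CPM, all below every NHD13 library (log2 -1.08 ± 0.11, adjusted p = 1.25e-07). E2f1 fell by 0.35 (SE 0.12). All 3 members of the G1/S group were thus lower. Rrm2 and Ccne2 were the members that fell at least 2-fold, against 6.47% of all genes tested.

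In the helicase ring, Mcm5 fell by 0.56 (log2, SE 0.08), Mcm4 by 0.51, Mcm7 by 0.36, Mcm3 by 0.33 and Mcm2 by 0.26, and Mcm6 did not pass, with 711 to 736 CPM in KO and 700 to 750 in NHD13. Cdt1 fell by 0.61 (SE 0.17), Cdc45 by 0.44, Cdc6 by 0.39, Mcm10 by 0.30 and Gins1 by 0.22. None of the 5 polymerase and primase members passed. Pole, the catalytic subunit of polymerase epsilon, was at 21.7 to 26.1 CPM in KO and at 22.5 to 24.0 in NHD13. Of the clamp and its loader, Rfc3, Rfc4 and Pcna fell by 0.33, 0.30 and 0.26. Rfc2 was at 379, 411 and 404 CPM, above the 330 to 347 of NHD13 (log2 0.24 ± 0.06, adjusted p = 0.00188). Slbp fell by 0.61 (SE 0.05), from 390 to 404 CPM down to 257 to 267. Clspn, an adaptor of the fork checkpoint kinase, fell by 0.53 (SE 0.08).

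In this comparison 6 calls were lost without 1 library. Gins1 was lost without KO replicate 1, 2 or 3 or NHD13 replicate 1 or 2 (adjusted p up to 0.151), Chaf1b without KO replicate 1 or 2 or NHD13 replicate 2 or 3 (up to 0.144), Mcm7 and E2f1 without KO replicate 1 or 3 or NHD13 replicate 1 or 3 (up to 0.0785 and 0.120), Lig1 without KO replicate 1 or 2 or NHD13 replicate 2 (up to 0.0897), and Cdt1 without KO replicate 3 or NHD13 replicate 3 (up to 0.0691). Among members with E2F letters in the promoter, 11 of 18 fell (median log2 -0.29), and among those without, 11 of 14 (median log2 -0.33).

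**Figure D3:**
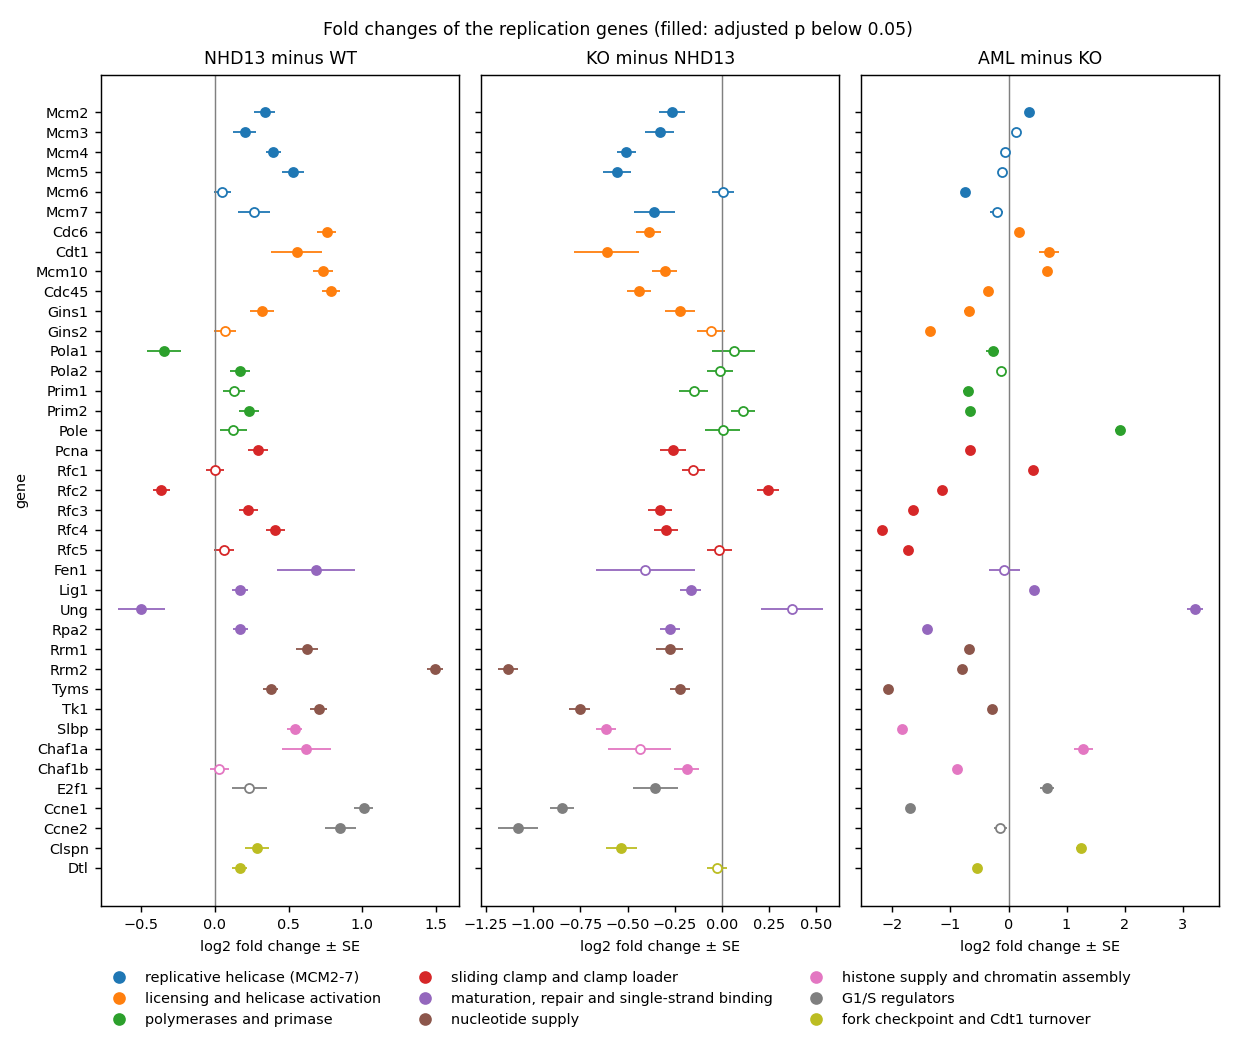
Log2 fold change with its SE for each member, by role, in 3 comparisons with TMM factors, where filled points passed an adjusted p below 0.05. Rrm2 and the E-type cyclins stand farthest right in the first panel and farthest left in the second, and horizontal scales differ between panels. Under library totals 12 of the members that rose in NHD13, 1 of those that fell in KO (Lig1) and 3 of those that fell in AML (Cdc45, Pola1 and Tk1) change sign.

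Set against WT, which shares libraries with both comparisons above, the libraries labelled KO had 8 members higher (Mcm10, Cdc6, Rrm2, Rrm1, Cdc45, Prim2, Tyms and Dtl) and 1 lower (Clspn) with TMM factors, but 2 higher and 16 lower with library totals. Of all genes tested with TMM factors, 37.1% were called in either direction and 17.2% were higher, while 9 of 39 members were called. The median log2 of the members was 0.01 and that of all genes -0.01, and with library totals -0.19 and -0.21. Mcm10 was at 33.4, 31.1 and 33.0 CPM in WT and at 42.8, 45.9 and 42.6 in KO (log2 0.43 ± 0.07, edgeR adjusted p = 4.38e-05). Cdc6 was at 62.7, 60.1 and 65.4 CPM in WT and at 78.8, 87.6 and 76.7 in KO (log2 0.37 ± 0.07, adjusted p = 0.000188). Rrm2 was higher by 0.36 ± 0.05 (adjusted p = 3.12e-05) and Rrm1 by 0.35 ± 0.07 (adjusted p = 0.000863). Rrm1 had 263, 281 and 290 CPM in WT and 339, 375 and 347 in KO. None of these 4 genes overlapped between the groups, and all remained called without any 1 library. Clspn was at 42.0, 33.8 and 38.8 CPM in WT and at 32.9, 30.2 and 33.4 in KO (log2 -0.25 ± 0.08, adjusted p = 0.0233), just short of overlap, and lost its call without WT replicate 1 or 3 or KO replicate 1 or 2 (up to 0.149). The call of Dtl was lost without KO replicate 1 or 3 or WT replicate 2 or 3 (up to 0.139) and that of Tyms without KO replicate 1 or WT replicate 1 (up to 0.0713). Rrm2 and Mcm10 were the 2 members higher under library totals as well.

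The AML libraries, C-Kit+ spleen cells at the leukemia stage, differed from the libraries labelled KO at most genes, with 82.4% of all genes tested called, 42.8% higher and 39.5% lower. Of the 39 members, 11 were higher and 21 lower with TMM factors, and 17 higher and 18 lower with library totals. The share of members called, 82.1%, lay next to that of all genes. At least 2-fold changes were found in 13 members: Ung, Pole, Chaf1a and Clspn were higher, and Rfc4, Tyms, Slbp, Rfc5, Ccne1, Rfc3, Rpa2, Gins2 and Rfc2 lower, against 31.1% and 26.9% of all genes. The median log2 of the members was -0.29 and that of all genes 0.07, and with library totals 0.13 and 0.49.

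Fold changes in this comparison moved with gene length over all genes. With genes in 10 bins by length, the median log2 was -1.03 in the bin of the shortest and 0.99 in that of the longest. The same medians were -0.05 and -0.15 for NHD13 against WT, and 0.17 and 0.12 for KO against NHD13. A fit that takes length into account library by library gave 8 members higher and 24 lower, of which 7 and 19 were called the same way without it. Mcm2, Cdc6, Mcm10 and Rfc1 were higher without that correction and had log2 values of -0.36, -0.28, -0.11 and -0.17 with it, and Cdc45 and Gins1 were lower without it and at 0.16 and 0.14 with it. Each fold change of AML against KO below is followed by its value corrected for length, and the part of length in the results was not tested further.

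**Figure D4:**
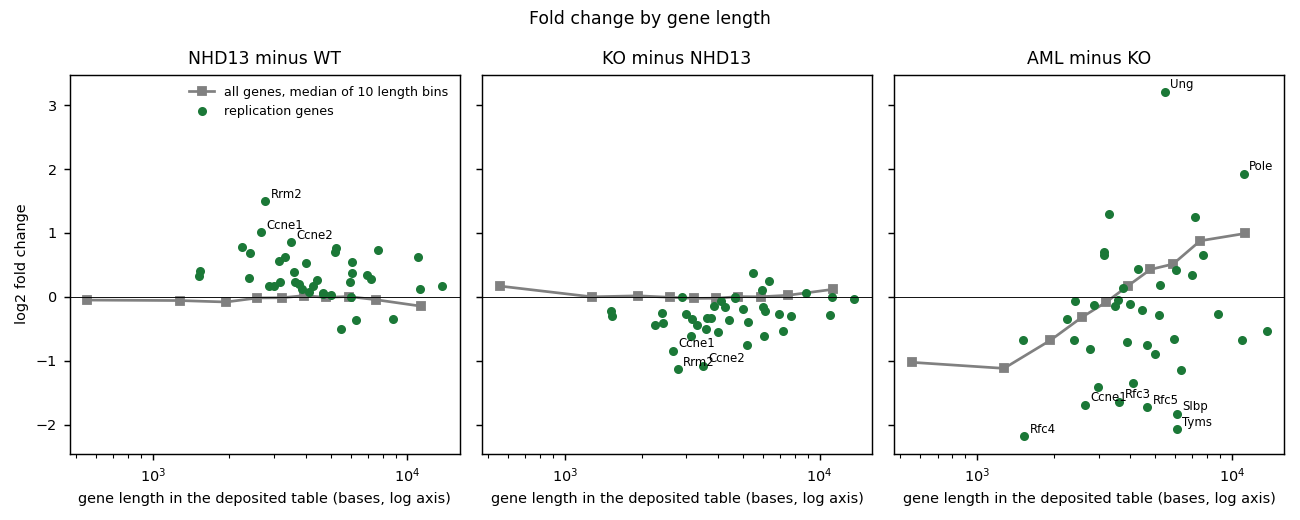
Log2 fold change of each member (circles, TMM scaling) against gene length on a log axis, with the median of all tested genes in 10 length bins (squares), in 3 comparisons. In the third panel the bin medians run from -1.03 to 0.99, Tyms, Slbp and Rfc2 to Rfc5 lie below them, and Ung and Pole above. Mcm2, Cdc6, Mcm10, Rfc1, Cdc45 and Gins1 change sign when length is corrected, and Cdc45, Pola1 and Tk1 under library totals.

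The clamp loader did not move as one complex with TMM factors, though all 5 subunits were lower once length was corrected. Rfc4 was at 134, 135 and 134 CPM in KO and at 30.2, 29.1 and 29.6 in AML (log2 -2.18 ± 0.07, edgeR adjusted p = 1.02e-15, length-corrected -1.37). Rfc5 was at 236, 224 and 223 CPM in KO and at 67.3, 70.8 and 68.1 in AML (log2 -1.73 ± 0.07, adjusted p = 1.97e-14, corrected -2.07). Rfc3 fell by 1.64 and Rfc2 by 1.14 on the log2 scale (corrected -1.69 and -1.77). Rfc1, the large subunit, was at 95.9, 87.8 and 88.8 CPM in KO and at 126, 119 and 120 in AML (log2 0.42 ± 0.06, corrected -0.17). Its call turned from higher to lower under the correction (adjusted p = 0.0235). Pcna, the clamp they load, fell by 0.67 (corrected -0.24).

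Nucleotide supply was lower throughout with TMM factors, though Tk1 changed sign with library totals, at 0.13. Tyms was at 236, 238 and 230 CPM in KO and at 57.5, 54.1 and 55.7 in AML (log2 -2.07 ± 0.06, adjusted p = 9.53e-17, corrected -2.68). Rrm2 was at 162, 175 and 171 CPM in AML (log2 -0.81 ± 0.05, corrected -0.53), Rrm1 fell by 0.68 (corrected -1.66) and Tk1 by 0.29 (corrected -0.74). Slbp was at 267, 257 and 257 CPM in KO and at 73.9, 71.4 and 74.6 in AML (log2 -1.83 ± 0.05, adjusted p = 2.80e-16, corrected -2.43). The 2 subunits of CAF-1 parted. Chaf1a was at 39.8, 41.2 and 40.1 CPM in KO and at 95.2, 101 and 100 in AML (log2 1.29 ± 0.16, adjusted p = 1.39e-05, corrected 1.36), and Chaf1b fell by 0.89 (corrected -1.31).

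Among the polymerases, Pole was at 21.9, 26.1 and 21.7 CPM in KO and at 89.3, 89.8 and 85.4 in AML (log2 1.92 ± 0.09, adjusted p = 2.29e-13, corrected 0.94). Both primase genes fell, Prim1 by 0.70 and Prim2 by 0.66 (corrected -0.83 and -1.24). Pola1 was at 85.6, 81.9 and 64.5 CPM in KO and at 66.5, 62.6 and 63.0 in AML, with overlap (log2 -0.27 ± 0.11, adjusted p = 0.0392, corrected -1.13). Its call was lost without any 1 of the AML libraries or without KO replicate 1 or 2 (adjusted p up to 0.197), and it changed sign under library totals. Ung was at 6.53, 6.77 and 7.74 CPM in KO and at 62.3, 67.7 and 64.8 in AML (log2 3.21 ± 0.14, adjusted p = 2.10e-13, corrected 2.71). Rpa2, of the single-strand binding protein RPA, fell by 1.40 (corrected -1.22), and Lig1, the ligase of the lagging strand, rose by 0.44 (corrected 0.19), from 163 to 173 CPM up to 224 to 230.

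In the MCM2-7 ring, 1 gene was higher and 1 lower with TMM factors, but 4 of 6 were lower and none higher once length was corrected. Mcm2 was at 260, 293 and 279 CPM in KO and at 339, 365 and 353 in AML (log2 0.35 ± 0.07, corrected -0.36), Mcm6 fell by 0.75 (corrected -1.09), and the others did not pass. With the correction Mcm7 (-0.48, edgeR adjusted p = 7.12e-05) and Mcm5 (-0.27, adjusted p = 0.000786) were called lower as well, while Mcm3 and Mcm4 still did not pass. In licensing, Cdt1 was at 75.8, 77.7 and 68.9 CPM in KO and at 115, 127 and 120 in AML (log2 0.70 ± 0.17, corrected 0.83). Mcm10 was at 67.8 to 70.0 CPM in AML, above 42.6 to 45.9 in KO (log2 0.66 ± 0.06, corrected -0.11). Cdc6 was at 90.7 to 92.7 CPM in AML, above 76.7 to 87.6 in KO (log2 0.18 ± 0.06, corrected -0.28), and its call was lost without KO replicate 3 (adjusted p = 0.0509). Gins2 fell by 1.35 (corrected -1.55), while Gins1 of the same complex fell by 0.68 (corrected 0.14).

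Regulators of S phase entry also parted. Ccne1 was at 15.7, 16.5 and 16.3 CPM in AML, all below the KO libraries (log2 -1.69 ± 0.07, adjusted p = 3.19e-14, corrected -1.37). Ccne2 did not pass, with 19.3 to 22.8 CPM in AML and 21.9 to 24.8 in KO. E2f1 was at 50.9, 58.8 and 48.8 CPM in KO and at 84.2, 86.0 and 80.4 in AML (log2 0.66 ± 0.12, adjusted p = 0.000119, corrected 0.78). Clspn was at 32.9, 30.2 and 33.4 CPM in KO and at 79.8, 74.9 and 74.5 in AML (log2 1.25 ± 0.08, adjusted p = 4.32e-11, corrected 0.52). Dtl, the adaptor that sends Cdt1 to degradation, fell by 0.54 (corrected -1.62). Members with E2F letters had 5 of 18 higher and 9 lower, and those without 5 of 14 higher and 8 lower.

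Related gene lists, chosen with earlier results of these data known, were counted in the same fits with TMM factors. Of all genes tested, 25.3% were higher and 28.7% lower in NHD13 against WT, and 20.6% and 20.3% in KO against NHD13. In KO against WT 37.1% were called in either direction, with 17.2% higher. In AML against KO 82.4% were called, with 42.8% higher and 39.5% lower, so many calls in any list are the background there. Of 49 other replication genes tested, 33 were higher and 2 lower in NHD13 against WT (median log2 0.40), 2 higher and 24 lower in KO against NHD13 (-0.26), 14 higher and 2 lower in KO against WT, and 15 higher and 27 lower in AML against KO (-0.34). Asf1b, a histone chaperone that passes histones to CAF-1, averaged 114 CPM in WT, 268 in NHD13 and 118 in KO. Dut, which removes dUTP, averaged 576 CPM in KO and 118 in AML. Of 27 genes of the E2F and RB pathway, 12 were higher and 9 lower in NHD13 against WT, 9 higher and 12 lower in KO against NHD13, and 18 higher and 8 lower in AML against KO. E2f2, another activating E2F, averaged 5.69 CPM in WT, 18.7 in NHD13, 5.27 in KO and 63.6 in AML. Cdkn1a, the p21 inhibitor of cyclin-dependent kinases, averaged 162 CPM in WT, 34.2 in NHD13, 167 in KO and 17.2 in AML. Of 24 G2/M genes, which act later in the cycle, all 24 were higher in NHD13 than in WT (median log2 0.90), 23 were lower in KO than in NHD13 (-0.41), 18 were higher and none lower in KO than in WT, and 7 were higher and 15 lower in AML than in KO (-0.39).

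H3K36me3, the mark that SETD2 deposits over transcribed gene bodies, covered most of these genes in the NHD13 - AML library and less of each in the NHD13/Setd2 KO - AML library. With 1 library for each genotype there is no replicate check and no test. In the first, broad peaks overlapped all 39 members by at least 1 base, against 69.2% of 14353 tested genes with RefSeq coordinates. In the second, 36 members had a peak, against 42.9%, and Pola1, Rfc3 and Rfc4 had none. At least 50% of the body was covered in 8 members there, against 3.66% of genes. The median covered share of a member's body was 85.7% and then 26.0%, and that of all genes 36% and then 0. High cover was not particular to the members. For the 24 G2/M genes the median was 86.6% and then 20.7%, with a peak in 24 and then 22. For 49 other replication genes it was 78.8% and then 9.59%, with a peak in 48 and then 38. All 39 members had less of their body covered in the second library, as did 98.8% of all genes with a peak in the first. The peak lists themselves differed, with 30928 peaks over 192890109 bases and 16894 peaks over 28276395 bases. No source used here gives the depth of either library or its input.

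The 6 members with the most cover in the NHD13/Setd2 KO - AML library were Rpa2 and the genes of the MCM2-7 ring other than Mcm4, which went from 92.1% to 49.3% and stood below Cdc6, Rrm1 and Cdt1. Mcm6 (chr1:128331575-128359705, GRCm38.p6) went from 91.8% to 83.5% of its body, Mcm7 from 73.4% to 65.4% and Mcm3 from 86.3% to 75.4%. Rpa2 went from 91.1% to 76.8%, Mcm2 from 88.2% to 66.9% and Mcm5 from 91.9% to 61.1%. At the other end, Rfc4 (chr16:23113948-23127730) went from 86.9% to 0, Rfc3 from 82.5% to 0 and Chaf1b from 91.4% to 8.18%. Tyms, which had the lowest cover above 0 in the second library, went from 54.6% to 2.70%. Pole (chr5:110286319-110337468), whose RNA was higher in AML than in KO, went from 94.2% to 21.3%. Pola1 (chrX:93304766-93632387), the longest member at 327622 bases, had the lowest cover in the first library, at 9.61%. The authors' peak lists give a fold enrichment, of which the highest over each member had a median of 5.75 in the first library. In the second the median was 5.39 over the 36 members with a peak there, which leaves out Pola1, Rfc3 and Rfc4.

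**Figure D5:**
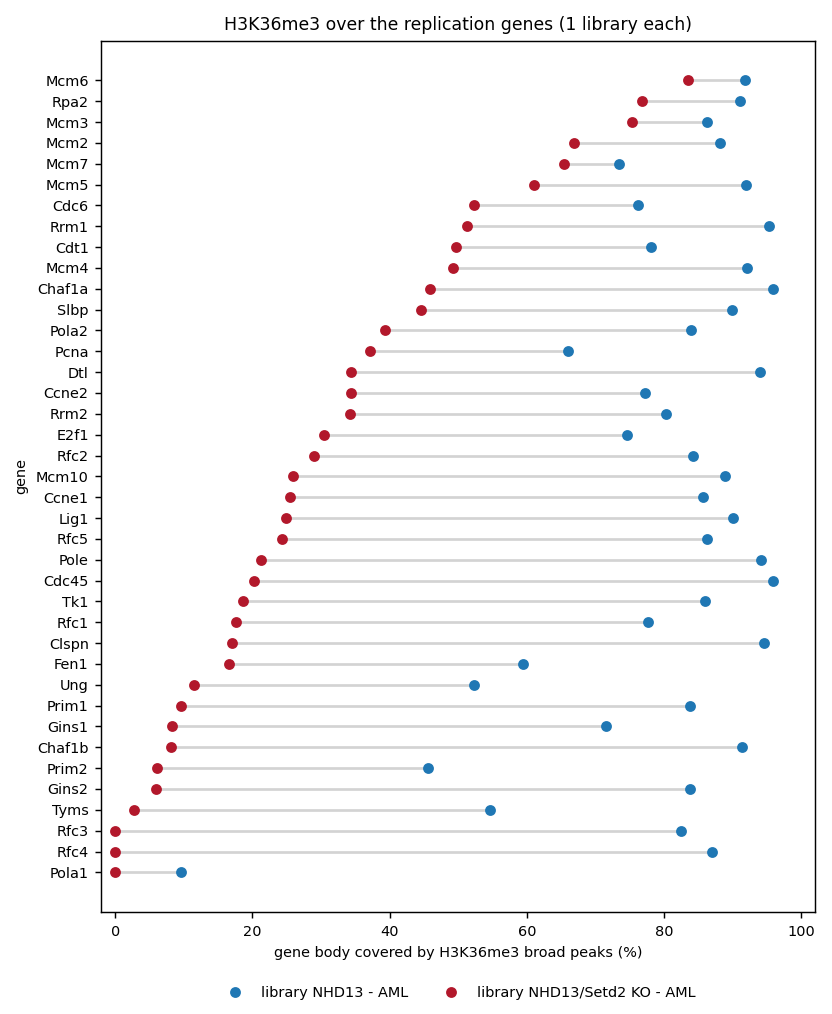
Share of each member's gene body (%) covered by broad H3K36me3 peaks in the NHD13 - AML library (blue) and the NHD13/Setd2 KO - AML library (red), ordered by the second. All 39 pairs run lower in the second library, and cover fell by 8.02 points at Mcm7 and fell by 86.9 points at Rfc4.

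Differentially methylated regions were described from the authors' deposited tables, 1 for each pair of groups. Each compares 1 library a group and holds called regions only, with no coverage. The direction of each difference rests on the order in which the table's name gives the groups. In the authors' deposited table of WT and NHD13, 18 of 39 members (46.2%) had a region over the body, against 49.6% of genes, and 27 of the 32 regions were less methylated in NHD13, as were 81.6% of all its regions. The authors' deposited table of NHD13 and KO had regions over 10 members (25.6%, against 43.0%), with 14 of 25 more methylated in KO, against 77.6% of all its regions. Pola1, X-linked and the longest member, held more of these regions than any other member, most of them more methylated in KO. Sex and genotype cannot be told apart for that gene. The authors' deposited table of KO and AML had regions over 11 members (28.2%, against 45.7%), with 12 of 18 less methylated in AML, against 77.8% of all its regions.

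Several members carried regions over nearly the same sites in more than 1 of these tables, which share libraries. Over the promoter window of Ccne1 (chr7:38107300-38107563, 83 CpG sites), whose RNA was highest in NHD13, methylation was 22.2 percentage points higher in NHD13 than in WT in the authors' deposited table. For chr7:38107336-38107578 (79 CpG sites) the difference of AML from KO was -21.7 points in the authors' deposited table. At the upstream edge of E2f1 (chr2:154569886-154570182, 75 CpG sites) the authors' deposited table gave 20.6 points more in NHD13 than in WT, and for chr2:154569901-154570165 a difference of KO from NHD13 of -17.6 points. Inside Cdc6 (chr11:98908547-98909744, 57 CpG sites) the difference of NHD13 from WT was -38.4 points in the authors' deposited table, and for chr11:98908685-98909322, within that stretch, that of KO from NHD13 was -25.2.

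Cdc45 and Tk1 each had a region in all 3 tables. So did Cdc6, Gins1, Pola1, Pola2, Prim2, E2f1 and Dtl, with 2 kb either side included. In Cdc45 (chr16:18808605-18809419, 22 CpG sites) the authors' deposited table gave -39.7 points for NHD13 against WT. For the overlapping chr16:18808758-18809418 the authors' deposited table gave 35.4 points for KO against NHD13, and for chr16:18808575-18809177 it gave -26.8 for AML against KO. Upstream of Tk1 (chr11:117827173-117828925, 73 CpG sites) the authors' deposited table gave -30.6 points for NHD13 against WT, 26.9 for KO against NHD13 over chr11:117827173-117828071, and -32.2 for AML against KO over chr11:117826951-117828983. The same order of signs stood in Pola2 (chr19:5955391-5955592), at -19.3, 20.2 and -22.6 points in the authors' deposited tables, with RNA averaging 114 CPM in both NHD13 and KO. In Prim2 (chr1:33582810-33584526) the authors' deposited table gave -40.9 points for NHD13 against WT. Inside that stretch the authors' deposited tables gave 21.2 points for KO against NHD13 over chr1:33582868-33583099. They gave -39.0 for AML against KO over chr1:33584164-33584526, which does not overlap the region of KO against NHD13. Prim2 RNA was highest in KO, at 82.2 CPM. Around the start of Pola1 (chrX:93631019-93632803, 134 CpG sites), a region that holds the stretch printed above, the authors' deposited table had -34.8 points for KO against NHD13. The gene is X-linked and Xist RNA averaged 94.8 CPM in NHD13 and at most 0.105 in KO, so sex and genotype cannot be told apart there. Exons and introns under these regions were not determined, since the gene table used here holds gene bounds only.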

How the data were processed

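Read counts per gene were deposited by the authors as 1 raw table. Per the submitters' processing notes, the tools named include HISAT2 2.0.5 and HTSeq 0.9.1, MACS2 2.1.1.20160309, and Bismark 0.19.0, on mm10. The FPKM values the authors deposited equal count over length and column total, so they carry no composition correction. Lengths are those of that table. The authors' peak lists give a fold enrichment, a score and −log10 p and q values per broad peak. The authors' methylation tables give, per the file headers, a difference, a score and the CpG sites of each region. No source used here names their caller. Their 6 columns of methylation per side were not used, since no label ties them to a library.

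A single model over 12 libraries was fitted in edgeR 4.0.16 (R 4.3.3), after filterByExpr and with TMM factors of 0.798 to 1.25. It had a mean per group, 8 residual degrees of freedom, the robust quasi-likelihood F test and Benjamini-Hochberg adjustment over 16233 genes at 0.05. The SE is the log2 fold change over the square root of F. CPM values use TMM factors. The test was also run on simulated counts with a common dispersion and genes changed in both directions. That draw was built without a shift of composition or length between groups, so it cannot check the test against those. Length was corrected by an offset per library, a loess (span 0.5) of the log2 CPM, relative to each gene's mean, on log2 length over 100 bins. Alternatives used limma 3.58.1 on log2(FPKM + 1) and DESeq2 1.42.0, and are in the closing section. Gene bounds came from RefSeq GRCm38.p6, the build of mm10, matched by symbol for 14353 tested genes and all 39 members, and promoters from RefSeq for 32. Library values are printed for Setd2 and, per comparison, for the 4 members that rose and the 4 that fell most and those called against the majority. Values per library of further members were added after they were seen. The members and the gene lists were chosen with earlier results of these data known.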

Additional observations from a re-analysis of the deposited data

How the results depend on the processing

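With library totals in place of TMM factors, the members higher and lower were 9 and 16 (NHD13 against WT), 5 and 10 (KO against NHD13), 2 and 16 (KO against WT), and 17 higher in AML against KO. On log2(FPKM + 1) with limma they were 9 and 15, 5 and 11, 2 and 14, and 17, and on log2(FPKM + 0.1) 9 and 16, 5 and 11, 2 and 14, and 17. These scalings moved the median of all genes as well. The log2 values that changed sign, given for library totals, log2(FPKM + 1) and log2(FPKM + 0.1) in that order, were as follows. NHD13 against WT had the median of the members at -0.10, -0.091 and -0.094, Mcm2 at -0.048, -0.043 and -0.044, Mcm3 at -0.18, -0.18 and -0.18, Gins1 at -0.065, -0.060 and -0.061, and Pola2 at -0.21, -0.21 and -0.21. It also had Prim2 at -0.15, -0.14 and -0.15, Pcna at -0.092, -0.091 and -0.092, Rfc3 at -0.16, -0.15 and -0.16, and Lig1 at -0.22, -0.21 and -0.22, as well as Rpa2 at -0.21, -0.21 and -0.21, Tyms at -0.0071, -0.0062 and -0.0063, Clspn at -0.10, -0.082 and -0.094, and Dtl at -0.22, -0.20 and -0.21. KO against NHD13 had Lig1 at 0.021, 0.020 and 0.021. AML against KO had the median of the members at 0.13, 0.12 and 0.13, Cdc45 at 0.069, 0.069 and 0.071, Pola1 at 0.14, 0.13 and 0.15, and Tk1 at 0.13, 0.12 and 0.13. KO against WT had the median of the members, 0.0098 in the fit reported, at -0.19, -0.18 and -0.18 (and at -0.0090 with upper quartiles and -0.0021 with a filter at 1 CPM), and Tyms at -0.042, -0.041 and -0.042, and Dtl at -0.060, -0.053 and -0.058.

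The count of members higher in KO than in NHD13 was 2 with upper quartiles and 2 with no filter on low counts. That of members lower in KO than in WT, 1 in the fit reported, was 3 with upper quartiles, 2 with no filter, 4 with a filter at 1 CPM in 3 libraries, and 0 with only the 2 groups fitted, with length corrected or with DESeq2. With upper quartiles Cdc6 in AML against KO was at -0.0066. Length correction turned Mcm2 (-0.36), Cdc6 (-0.28), Mcm10 (-0.11), Cdc45 (0.16), Gins1 (0.14) and Rfc1 (-0.17) in AML against KO. The cause was not tested for any of these. With 1 library left out at a time, members higher and lower were 22 to 30 and 2 to 3 in NHD13 against WT, 1 and 21 to 23 in KO against NHD13, 10 to 12 and 20 to 21 in AML against KO, and 7 to 9 and 0 to 2 in KO against WT, and no called member changed sign.

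Same-numbered libraries did not deviate together in every pair (r of 0.09, -0.38 and 0.04 for KO and NHD13) and not every library correlated best with its own number, so the numbers were not taken as pairs. With the replicate number as a block, 2 members were higher in KO than in NHD13 and 2 lower in KO than in WT, and the other 6 counts stayed within 1.5 times.

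Peaks over at least 50% of the body left 8 members in NHD13/Setd2 KO - AML. Regions with a methylation difference of at least 0.3 numbered 13, 6 and 7 over the members for NHD13 against WT, KO against NHD13 and AML against KO. The RNA depth limits Fen1 and Ung, with 32 to 78 reads and, outside AML, 88 to 223 reads per library.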
